A study of Mus musculus with 2 samples.

Results

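Accessible chromatin was described at 6 genes that encode glycoproteins of the T-cell surface: Cd5, Cd6, Cd2, Thy1, Cd27 and Spn. They were taken by name from 21938 protein-coding genes of the mouse annotation on build mm10. Each was given a span, which is the annotated gene extended by 25 kb in both directions. Cd5 and Cd6 are neighbours on chromosome 19, and the gap of 338 bp between their flanks was closed, so that the 6 genes lay in 5 spans of 390 kb in all. The assay was DNase-seq, in which DNase I cuts DNA that is not covered by nucleosomes and the cuts are sequenced. Thymus tissue came from B6CASTF1/J mice (a cross of C57BL/6J with CAST), all female and 25 days old, with no treatment named. There were 2 libraries, numbered as biological replicates 1 and 2, 1 from each animal, and they formed 1 group (n = 2), so no condition was contrasted. The tissue was whole thymus, unsorted, so a site can come from any cell type of the organ, and fewer cells of a type cannot be told apart from less access per cell.

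Replicate 1 had 179 peaks in the 5 spans and replicate 2 had 84, out of 127552 and 67270 peaks in the 2 libraries. Peaks are the stretches that the authors called as dense in cuts. Footprints, which are short stretches inside accessible DNA that were cut less than their surroundings and may be covered by protein, numbered 547 and 277 in the spans. The number of reads per library is unknown, and with it the depth behind these counts. The whole peak list of replicate 1 was 1.90 times as long as that of replicate 2, and this gap touches every count below.

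Thymocytes pass from double-negative through double-positive to single-positive stages, and surface glycoproteins are among the markers used to follow them. CD5 and CD6 carry scavenger receptor cysteine-rich domains and tune signals from the T-cell receptor, and CD6 binds ALCAM. CD2 is an adhesion receptor whose ligand in the mouse is CD48. THY1 is held in the membrane by a glycosylphosphatidylinositol anchor and is a classic thymocyte marker that neurons also carry. CD27 is a co-stimulatory receptor of the TNF receptor family, with CD70 as its ligand and TRAF proteins as its cytoplasmic partners. SPN, also called CD43 or sialophorin, is a heavily glycosylated mucin-like protein linked to the cytoskeleton by proteins such as ezrin and moesin.

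The promoter stretches of Cd5, Cd27 and Spn are shown because RefSeq promoter windows were matched for these 3. Each runs from the edge of the promoter peak part found in both libraries to the base before the annotated start, on the strand of the gene. Capitals mark bases inside footprints of both libraries, here and in the sequences that follow. The positions on mm10, all on the minus strand, are chr19:10739003-10739100, chr6:125237011-125237160 and chr7:127137824-127137960.
Cd5 promoter: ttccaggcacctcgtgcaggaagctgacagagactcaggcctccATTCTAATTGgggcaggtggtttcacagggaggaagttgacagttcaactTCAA
Cd27 promoter: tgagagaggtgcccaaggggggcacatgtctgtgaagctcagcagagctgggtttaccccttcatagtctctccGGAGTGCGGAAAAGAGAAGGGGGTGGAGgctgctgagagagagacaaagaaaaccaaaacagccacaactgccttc
Spn promoter: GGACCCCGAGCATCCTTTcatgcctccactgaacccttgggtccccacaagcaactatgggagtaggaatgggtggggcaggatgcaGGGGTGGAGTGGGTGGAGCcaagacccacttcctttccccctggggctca

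The Spn stretch held 37 such bases, the Cd27 stretch 28 and the Cd5 stretch 14. ETS (GGAAGT) was matched in the Cd5 and Spn stretches and MYB (CAACTG) in that of Cd27, all outside the capitals. Windows from RefSeq on build GRCm38.p6, 250 bases before to 50 after the RefSeq start, gave the base composition of the 3. The RefSeq start lay 28 bp downstream of the start used for the stretches at Cd5, 17 bp upstream at Cd27 and at the same base at Spn. The MYB match of Cd27 thus lay past its RefSeq start. Their GC content was 57.3%, 56.0% and 57.3%, above the median of 52.7% over 32851 windows. Their observed-to-expected CpG ratios were 0.126, 0.303 and 0.124, against a median of 0.384, so Cd5 and Spn lay at the 17.3 and 16.9 percentiles of all windows.

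The next set shows, for each span, the site with the highest mean density rank in both libraries among those at no annotated gene start. The positions are chr19:10787461-10787660 for the Cd5/Cd6 span, chr3:101274921-101275120 for Cd2, chr6:125222307-125222380 for Cd27 and chr7:127111601-127111780 for Spn, on the minus strand, and chr9:44022201-44022400 for Thy1, on the plus strand. Of the Cd27 site the longest stretch outside annotated untranslated sequence, 74 bases, is printed.
Cd5/Cd6, past the 3 prime end of Cd6: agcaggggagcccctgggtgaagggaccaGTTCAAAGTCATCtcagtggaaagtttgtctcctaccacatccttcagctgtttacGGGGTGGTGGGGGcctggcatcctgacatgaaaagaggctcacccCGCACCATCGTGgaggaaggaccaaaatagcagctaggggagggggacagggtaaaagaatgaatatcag
Cd2, past its 3 prime end: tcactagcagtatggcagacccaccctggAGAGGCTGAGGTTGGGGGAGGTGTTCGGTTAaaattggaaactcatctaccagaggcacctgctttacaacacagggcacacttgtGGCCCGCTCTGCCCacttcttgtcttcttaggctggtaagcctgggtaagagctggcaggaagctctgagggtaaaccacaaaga
Thy1, upstream: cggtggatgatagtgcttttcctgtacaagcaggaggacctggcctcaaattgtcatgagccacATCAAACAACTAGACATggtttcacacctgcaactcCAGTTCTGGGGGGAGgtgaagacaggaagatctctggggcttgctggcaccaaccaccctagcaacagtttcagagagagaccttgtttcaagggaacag
Cd27, downstream within Vamp1: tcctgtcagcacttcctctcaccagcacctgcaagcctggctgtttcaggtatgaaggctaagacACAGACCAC
Spn, downstream within Qprt: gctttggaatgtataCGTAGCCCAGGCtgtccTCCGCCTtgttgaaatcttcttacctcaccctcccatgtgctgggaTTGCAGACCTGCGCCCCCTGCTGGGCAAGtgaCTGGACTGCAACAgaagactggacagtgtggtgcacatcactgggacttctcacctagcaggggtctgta

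In the Cd5/Cd6 site a TCF/LEF match (CTTTGA, here as TCAAAG on the other strand) lay whole within a shared footprint, while its RUNX (TGTGGT) and E-box (CAGCTG) matches lay outside. In the Spn site a match to the CTCF consensus lay whole within one, while its RUNX match lay outside. The RUNX match of the Cd2 site and the ETS match of the Cd27 site had no base in a shared footprint. None of the 9 motifs searched was found in the Thy1 site, which says only that those letters are not in this window.

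Another 4 sites, shown next, were picked after their values had been seen. They are the upstream site of Cd2 (chr3:101295621-101295800), which had the highest density rank of the Cd2 span in replicate 1, the upstream site of Cd6 (chr19:10831541-10831700), intron 3 of Thy1 (chr9:44047161-44047360) and the upstream site of Cd27 (chr6:125238501-125238720). Thy1 is read on the plus strand and the others on the minus strand. A site in intron 3 of Cd2 (chr3:101280521-101280720) was picked in the same way, and its bases are not shown. Introns and exons are named by the middle of a site, so its edges can reach into the next part of the gene.
Cd2, upstream: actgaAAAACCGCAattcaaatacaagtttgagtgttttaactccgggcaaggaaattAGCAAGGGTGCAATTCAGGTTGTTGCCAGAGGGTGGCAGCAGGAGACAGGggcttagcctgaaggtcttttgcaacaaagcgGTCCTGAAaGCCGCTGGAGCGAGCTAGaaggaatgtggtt
Cd6, upstream: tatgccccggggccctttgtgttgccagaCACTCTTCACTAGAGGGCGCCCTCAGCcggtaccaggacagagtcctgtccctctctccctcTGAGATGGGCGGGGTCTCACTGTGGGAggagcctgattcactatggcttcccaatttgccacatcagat
Thy1, intron 3: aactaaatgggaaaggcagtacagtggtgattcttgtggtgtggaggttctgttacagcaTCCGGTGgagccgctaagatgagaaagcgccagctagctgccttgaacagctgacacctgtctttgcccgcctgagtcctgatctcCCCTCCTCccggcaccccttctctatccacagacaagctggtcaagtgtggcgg
Cd27, upstream: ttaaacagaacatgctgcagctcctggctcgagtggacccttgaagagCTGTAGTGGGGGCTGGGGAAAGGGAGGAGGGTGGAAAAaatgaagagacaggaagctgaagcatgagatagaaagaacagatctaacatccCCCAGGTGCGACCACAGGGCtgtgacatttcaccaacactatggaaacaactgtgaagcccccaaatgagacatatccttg

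Shared footprints covered 85 bases of the Cd2 upstream site, more than in any other sequence shown, and 15 bases of the Thy1 site. In the Cd27 upstream site the RUNX match (ACCACA on this strand) lay whole within a shared footprint. The same held for the SP/KLF match (GGGCGG) of the Cd6 upstream site. In the Thy1 intron site the RUNX, E-box and Ikaros (TGGGAA) matches all lay outside the shared footprints. The Ikaros match of the Cd6 upstream site and the MYB match of the Cd27 upstream site also lay outside. So did the RUNX match of the Cd2 upstream site. In the Cd2 intron 3 site, whose bases are not shown, the Ikaros match lay whole within a shared footprint. Its TCF/LEF match had 4 of 6 bases in one, and its E-box match lay outside.

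All 6 members had a peak within 1 kb of the annotated start in both libraries. In each case a peak lay over the start itself, which was not counted over all genes. Over all protein-coding genes, 61.7% in replicate 1, 55.1% in replicate 2 and 54.4% in both had a peak within 1 kb of the start, so an open promoter by itself is the common state. The density that the authors gave each peak has an unstated scaling and was used only as a rank within its list. A density percentile is the percent of a library's peaks with a lower density. Since the replicate 1 list is longer, a site of the same rank from the top has a higher percentile there, so percentiles place a site within its library and not between libraries. Thy1 had the highest promoter rank of the 6 in replicate 1, at the 93.2 percentile, and was at 90.3 in replicate 2. Cd5 was at 89.8 and 92.7, the highest in replicate 2.
Spn was at 91.6 and 87.7, Cd27 at 90.4 and 87.6, and Cd6 at 88.2 and 86.3. Cd2 was lowest in both, at 82.4 and 77.1. Set among the promoter peaks of all genes, every member but Thy1 lay below the median in replicate 1. In replicate 2 only Cd2 and Cd6 did. The percentiles of the 6 there ran from 30.1 at Cd2 to 51.4 at Thy1 in replicate 1 and from 30.7 at Cd2 to 66.3 at Cd5 in replicate 2.

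In peaks per 10 kb of span, promoter included, every member lay above the median gene in both libraries. These ranks are among all protein-coding genes. The promoter ranks above are of density among genes with a promoter peak, so the ranks are not compared. Cd27 (ENSMUSG00000030336, chr6:125232622-125237010) had 43 peaks in its span in replicate 1 and 20 in replicate 2, or 7.91 and 3.68 per 10 kb (mean 5.79 ± 2.99, SD, n = 2). The median over all protein-coding genes, each with the same flanks, was 0.838 and 0.413 per 10 kb. Only 10 genes in replicate 1 and 76 in replicate 2 had more peaks per 10 kb than Cd27. The span is gene-dense: Vamp1 is annotated across Cd27 on the other strand, and Tapbpl lies just downstream, so part of these sites may belong to either.

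Thy1 (ENSMUSG00000032011, chr9:44043384-44048579) had 36 and 17 peaks, or 6.52 and 3.08 per 10 kb (mean 4.80 ± 2.43). More peaks per 10 kb were found at 31 genes in replicate 1 and 215 in replicate 2. Cd2 (ENSMUSG00000027863, chr3:101275899-101287939) had 41 and 14 peaks, or 6.61 and 2.26 per 10 kb (mean 4.44 ± 3.08). It was passed by 29 genes in replicate 1 but by 684 in replicate 2. Apart from 3 processed pseudogenes, Cd2 is the only annotated gene in its span.

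Spn (ENSMUSG00000051457, chr7:127132232-127137823) had 18 and 12 peaks, or 3.24 and 2.16 per 10 kb (mean 2.70 ± 0.764). It lay at the 96.0 and 96.3 percentiles of genes, so its place was nearly equal in the animals. Cd6 (ENSMUSG00000024670, chr19:10789341-10830058) had 26 and 12 peaks within its own flanks, at the 94.3 and 86.9 percentiles. Cd5 (ENSMUSG00000024669, chr19:10717116-10739002) had 15 and 9, at the 86.5 and 85.5 percentiles, the lowest place of the 6 in both libraries. Their joint span of 163 kb held 41 and 21 peaks, or 2.52 and 1.29 per 10 kb (mean 1.91 ± 0.87). Cd27 stood first and Cd5 last in both libraries, while Cd2 and Thy1 changed places.

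**Figure D1:**
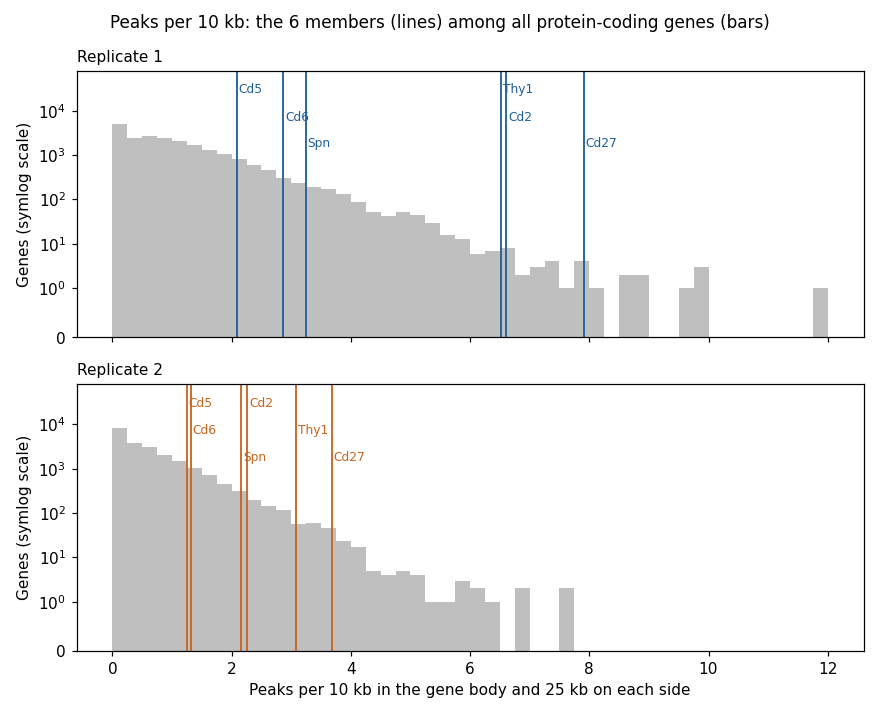
Number of protein-coding genes (vertical, symmetric log scale) by peaks per 10 kb in a gene's span (horizontal), for replicate 1 above and replicate 2 below. Lines mark the 6 members: Cd27, Cd2 and Thy1 stand far out in replicate 1, at 7.91, 6.61 and 6.52, while in replicate 2 Cd2, at 2.26, lies beside Spn, at 2.16.

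The ratio of replicate 1 to replicate 2 peaks differed between the spans. It was 1.50 at Spn, 1.95 at Cd5/Cd6, 2.12 at Thy1, 2.15 at Cd27 and 2.93 at Cd2, against 1.90 for the whole lists. With the replicate 1 list cut by density to the length of the replicate 2 list, an alternative chosen after seeing the data, the 5 spans held 116 and 84 peaks. Cd27 then had 31 against 20, Thy1 25 against 17, Cd2 21 against 14, Cd5/Cd6 26 against 21 and Spn 13 against 12. The excess of replicate 1 thus fell to 1.38 over the 5 spans and to 1.50 at Cd2.

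Bases whose cut rate had a false discovery rate below 0.05 give another view of the same DNA, base by base. They made up 18.8% of the spans in replicate 1 and 7.27% in replicate 2, against 1.65% and 0.85% of the genome. Cd27 had the largest share, 33.7% and 13.2% of its span (mean 23.5% ± 14.5, SD, n = 2). Thy1 had 27.2% and 10.8%, and Spn 11.6% and 7.14%. The Cd5/Cd6 span had the smallest share, 8.68% and 4.31%. The median gene had 3.29% and 1.66%, so every span was above it in both libraries.

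Cd2 differed most between the animals by this measure. Its share was 31.2% in replicate 1 and 6.78% in replicate 2, a ratio of 4.61. Among 13382 genes with at least 1% of bases listed in both libraries, the median ratio was 1.76 and 37 genes had a higher ratio than Cd2. Cd27 at 2.54 and Thy1 at 2.52 were near the 90.5 and 89.9 percentiles, and Cd6 at 2.35 was at the 85.4 percentile. Cd5 (1.55) and Spn (1.63) were below the median ratio. With 1 library per animal, a difference between animals cannot be told apart from one between libraries.

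**Figure D2:**
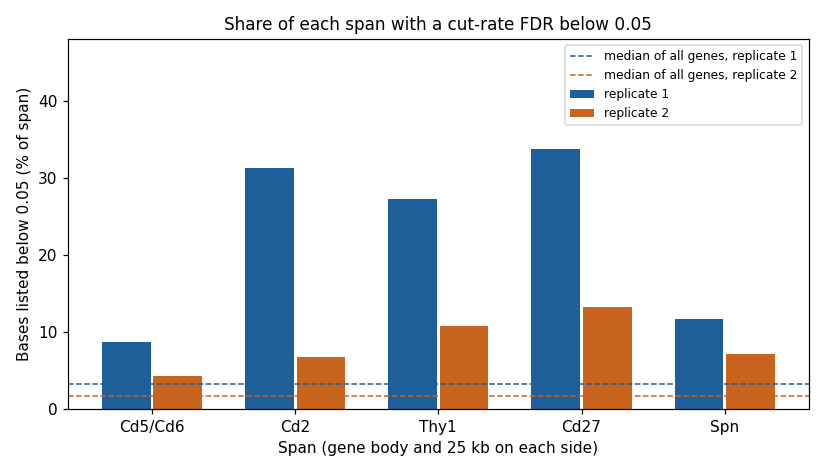
Percent of each span listed with a cut-rate false discovery rate below 0.05 (vertical) in the 5 spans (horizontal), with 1 bar per library and dashed lines at the median of all protein-coding genes. Replicate 1 is higher in every span, by a factor from 1.63 at Spn to 4.61 at Cd2, and each bar is above the line of its library.

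In replicate 1 the densest peaks of the spans had a partner in the other animal and most weak ones did not, while in replicate 2 nearly every peak had one. Of the replicate 1 peaks in the spans, 81 of 179 (45.3%, 95% Wilson interval 38.1% to 52.6%) overlapped a replicate 2 peak by at least 1 bp, near the 46.9% of all replicate 1 peaks. Of the replicate 2 peaks, 80 of 84 (95.2%, 88.4% to 98.1%) overlapped a replicate 1 peak, where 88.8% of all replicate 2 peaks did. These intervals cover counting error only. All 21 replicate 1 peaks above the 90th percentile of density were shared, and 49 of 50 above the 75th, but only 2 of 72 below the 50th. In replicate 2, 13 of 14 peaks above the 90th percentile and 11 of 14 below the 50th were shared. The same split by density was not counted over all peaks, so it is not read as particular to these spans. Every replicate 2 peak at Cd2, Thy1 and Spn had a partner, 14, 17 and 12 in number. Merged over the libraries there were 178 sites, of which 80 were in both, 94 in replicate 1 alone and 4 in replicate 2 alone. Some replicate 1 peaks in the Cd2, Thy1 and Cd27 spans overlap each other. Peak counts and their ratios take each such peak on its own, while a merged site counts once. The 98 replicate 1 peaks without a partner thus make 94 sites.

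**Figure D3:**
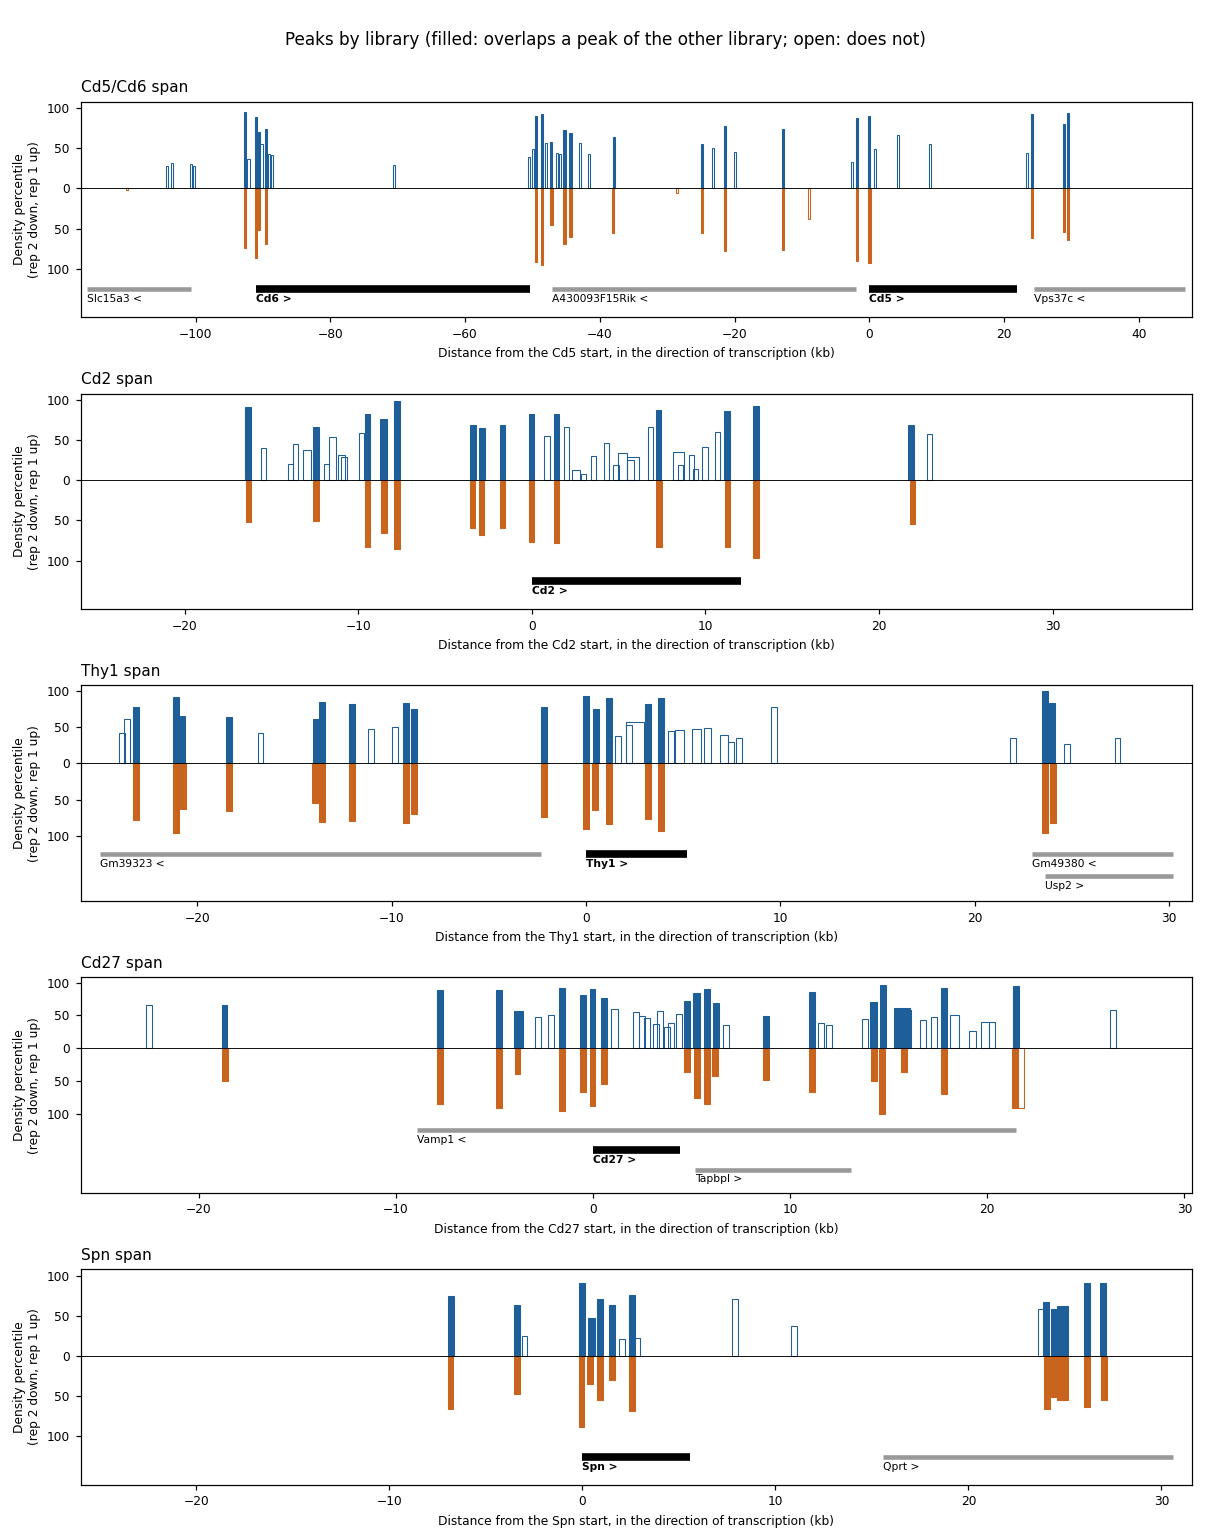
Peaks in the 5 spans by distance from the start of the named member (horizontal, kb, in the direction of transcription), with height as density percentile within the library (replicate 1 up, replicate 2 down). Narrow peaks are drawn widened so that they can be seen. Filled bars overlap a peak of the other library and open bars do not; black bars below are member genes, grey bars are neighbours, and arrowheads give their direction. The open bars, 98 in replicate 1 and 4 in replicate 2, are mostly low, and those of Cd2 lie thickly across the gene and its upstream flank.

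Between Cd5 and Cd6 lies the noncoding gene A430093F15Rik. Away from promoters, the best ranked pair of sites in this span stood just past the 3 prime end of Cd6. The site at chr19:10787461-10787660 was at the 92.9 and 95.1 percentiles, and that at chr19:10788361-10788560 at 89.7 and 91.4. Both ranked above the Cd6 promoter. Upstream of Cd5, at -1.83 kb, a site at the 87.8 and 90.1 percentiles (chr19:10740721-10740940) lay at the start of A430093F15Rik, which runs away from Cd5. Across the body of that noncoding gene, sites of the middle ranks were called in both libraries, from the 55.7 to the 77.7 percentile in replicate 1 and from 55.3 to 78.5 in replicate 2. Cd6 also had a site at -1.56 kb at the 95.1 and 73.9 percentiles. The densest peak of the span found in 1 library alone lay in the first intron of Cd5, at the 66.5 percentile in replicate 1.

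At Cd2, 5 of the 13 shared sites other than the promoter were denser than the promoter in both libraries, the most of any member. The one just past the 3 prime end of the gene, 12.9 kb from the start (chr3:101274921-101275120), was at the 93.0 and 96.6 percentiles. As background, human CD2 transgenes are known for a locus control region in the 3 prime flank. The site at -7.77 kb (chr3:101295621-101295800) was at the 99.1 percentile in replicate 1 and at 85.3 in replicate 2, with deposited densities of 30.3 and 4.74, each on the scale of its own list. Sites in intron 3 (87.1 and 83.4) and intron 4 (85.9 and 82.8) of Cd2 also outranked the promoter. A site at -16.3 kb was at the 90.7 percentile in replicate 1 and at 51.5 in replicate 2. Of the 27 replicate 1 peaks of the Cd2 span without a partner, 1 held any base with a false discovery rate below 0.05 in replicate 2. Over the 5 spans it was 2 of 98, and the share over the whole list was not counted.

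At Thy1 the site of the span with the highest mean percentile belonged to a neighbour, the start of the deubiquitinase gene Usp2, 23.6 kb downstream (chr9:44066881-44067120), at the 99.9 and 96.3 percentiles. A site at -21.1 kb (chr9:44022201-44022400), in an intron of the noncoding gene Gm39323, was at 92.3 and 96.7 and was the densest of the span in replicate 2. Within Thy1 itself 5 sites were shared. They lay at the promoter, at 2 places in intron 1 (76.1 and 64.1, and 90.8 and 83.3), in intron 2 (81.9 and 77.2) and in intron 3, 3.88 kb from the start (chr9:44047161-44047360, 90.5 and 92.8). As background, transgene cassettes of Thy1 that lack exon 3 and its flanking introns are used to drive expression in neurons and lose expression in the thymus. Which cells gave the intron sites was not tested. The densest peak found in 1 library alone, at 9.70 kb, was at the 77.8 percentile of replicate 1, the highest such peak of that library in the 5 spans.

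At Cd27 the densest shared site lay 14.7 kb downstream of the start, in an intron of Vamp1 (chr6:125222241-125222380), at the 95.7 and 99.4 percentiles. The site at -1.60 kb from the Cd27 start (chr6:125238501-125238720) was at 92.0 and 95, and also ranked above the promoter in both libraries. The start of Vamp1, which encodes a protein of vesicle fusion, was at 95.3 and 91.5 (chr6:125215461-125215700). Beside it lay the densest peak of the spans called in replicate 2 alone, at the 90.2 percentile of that library. That peak held bases listed below a false discovery rate of 0.05 in replicate 1 too.

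At Spn no other shared site was denser than the promoter in both libraries, out of 11. Within the gene, whose coding sequence lies in its second and last exon, the best ranked site was in that exon (chr7:127135181-127135360), at the 75.7 and 68.1 percentiles. A pair of sites 26.1 and 27.0 kb downstream, in an intron of Qprt, was at 90.6 and 91.4 in replicate 1 but at 63.4 and 54.2 in replicate 2 (chr7:127111601-127111780 and chr7:127110741-127110900). In Spn the footprints numbered 41 and 38, nearly equal, whereas Cd27 had 149 and 62, Cd2 123 and 50, Thy1 122 and 62 and the Cd5/Cd6 span 112 and 65.

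Over the 5 spans 82.1% of replicate 1 footprints and 83.8% of replicate 2 footprints lay in peaks of their library, against 82.8% and 83.3% of all footprints. Of the replicate 1 footprints 32.4% (28.6% to 36.4%) overlapped one of replicate 2, and of the replicate 2 footprints 64.6% (58.8% to 70.0%) overlapped one of replicate 1. The shares over all footprints were 35.7% and 67.9%, so the members were near the background in both directions.

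Density percentiles of the 80 shared sites rose together in the animals, with a Pearson r of 0.786 and a Spearman rho of 0.77 across sites, which share their libraries and are not independent. The sign of a difference in percentile is largely set by the lengths of the lists. The median site was 5.45 points higher in replicate 1 with the lists as deposited, and 12.1 points higher over all 59715 shared pairs of peaks. With the replicate 1 list reduced to the length of the other, chosen after seeing the data, 79 of the 80 sites were left and the median turned to -10.8 points, against -4.99 over all pairs left. No direction between the animals is therefore read from these medians.

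Sites with a match to the CTCF consensus stood apart from the other sites on both scales. CTCF is the insulator protein that anchors chromatin loops. Allowing up to 1 mismatch, a setting chosen after seeing the data, 8 of the 80 sites held a match: 4 in the Cd5/Cd6 span, 2 at Spn, and 1 each at Cd2 and Cd27. With the lists as deposited, these 8 were higher in replicate 1 by a median of 28.5 points (range 19.1 to 39.2), and the other 72 sites by 4.85. With lists of equal length, all 8 were still higher in replicate 1, by a median of 21.6 points (range 6.31 to 30.8). Of the 71 other sites left, 65 were then higher in replicate 2, with a median of -11.5 points. The same held over all shared pairs, where the medians with lists of equal length were 22.8 points with a match and -8.28 without, so the shift was not particular to these genes. The pair downstream of Spn, the Cd2 site at -16.3 kb and the Cd6 site at -1.56 kb were among the 8.

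**Figure D4:**
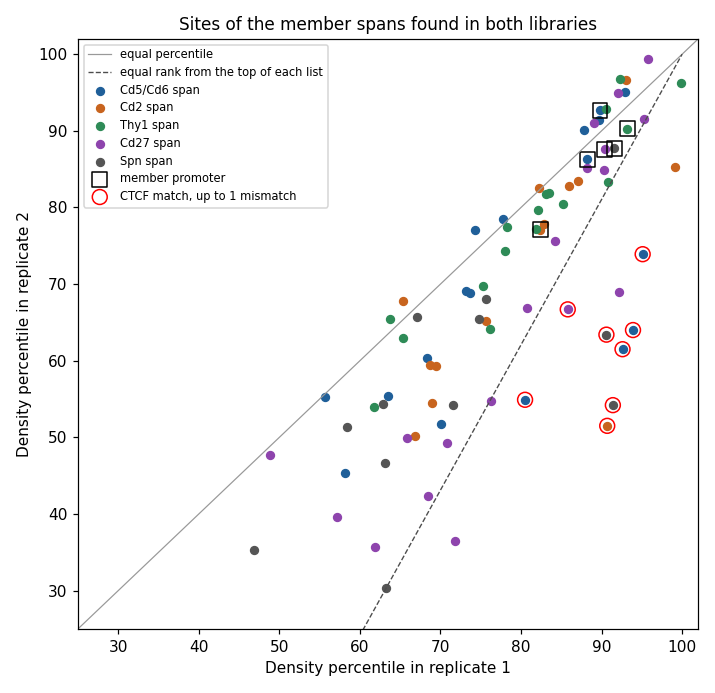
Density percentile in replicate 1 (horizontal) and in replicate 2 (vertical) of the 80 sites of the member spans called in both libraries, coloured by span, with a solid line at equal percentile and a dashed line at equal rank from the top of each list. Squares mark the 6 member promoters, which lie above the dashed line, and red rings mark the 8 sites with a CTCF match with up to 1 mismatch, which all lie below both lines.

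Motifs were searched on both strands in 200 bp around the middle of each shared site. RUNX (TGTGGT) was matched in 25 of the 80 sites (31.2%, 95% Wilson interval 22.2% to 42.1%), against 19.4% of all shared sites. MYB (CAACTG) was matched in 14 (17.5%, 10.7% to 27.3%), against 9.92%. SP/KLF (GGGCGG), common in CpG-rich promoters, was matched in only 6 (7.5%, 3.48% to 15.4%), against 26.5%, and 3 of these were at Thy1. The RUNX matches were spread over all 5 spans, with 7 in each of the Cd5/Cd6 and Cd27 spans, 4 at each of Thy1 and Spn and 3 at Cd2.
ETS (GGAAGT) was matched in 22.5% against 24.0%, TCF/LEF (CTTTGA) in 15.0% against 13.1%, and the E-box (CAGCTG) in 21.2% against 20%. Ikaros (TGGGAA) was matched in 16.2% against 14.8%, the motif of GATA factors, with the letters AGATAA, in 5.0% against 5.76% and the exact CTCF consensus in 2.5% against 4.87%. For these 6 the share of all sites lay within the 95% counting interval of the members' share, and for RUNX, MYB and SP/KLF it lay outside. For MYB this depended on the window. In 300 bp it was matched in 21.2% (13.7% to 31.4%) against 14.2% of all shared sites, which is inside the interval. RUNX and SP/KLF stayed outside with that window. Sites at gene starts and sites away from them were not counted apart, either at the members or over all shared sites. Whether a different mix of such sites bears on these shares was not tested. Sites are not replicates, so this is no test. A match is a string of letters and not evidence of binding.

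Promoter peaks were also counted for partners and relatives of the members. Over all protein-coding genes the share was 61.7% in replicate 1, 55.1% in replicate 2 and 54.4% in both. Among cytoplasmic partners 17 of 17 had a promoter peak in both libraries, among them the kinases Lck and Fyn, the phosphatase Ptpn6, the CD27 adaptors Traf2 and Traf5 and the SPN-binding Ezr and Msn. Of the CD2 and SLAM family 6 and 5 of 7 were open in replicates 1 and 2. Slamf7, known from plasma and NK cells, had no promoter peak in either. The TNF receptor relatives of CD27 were open in 9 and 8 of 9 cases, and other lymphocyte surface glycoproteins in 12 and 11 of 12. Against these, 0 of 7 scavenger receptor relatives of CD5 and CD6 were open in either library. These include Cd163, Msr1 and Marco, which are genes of macrophages.
Ligands and counter-receptors were open in 4 of 7 cases in both libraries, near the share over all genes. Cd48, the ligand of CD2, and Alcam, the ligand of CD6, had a promoter peak in both. Cd70, the ligand of CD27, had none in either, nor had Siglec1 and Cd5l.

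Markers of the cell types in the organ were read in the same way, beside the same shares over all genes. All 8 thymocyte markers, such as Cd3e, Cd4, Cd8a and Rag1, had a promoter peak in both libraries. Of 5 B cell markers 3 and 2 were open, of 6 myeloid and dendritic markers 3 and 2, of 5 NK markers 2 and 2, of 6 thymic epithelium markers 2 and 1, of 7 stroma and endothelium markers 5 and 4, and of 5 neuron markers 2 and 2. Within these lists Epcam of the thymic epithelium, Cd79b and Blk of B cells and Lyz2 and Itgam of myeloid cells had a promoter peak in both libraries, and Krt5, Ms4a1 and Cd14 in replicate 1 alone. Foxn1, Psmb11, Krt8 and Prss16 of the epithelium, Pax5 and Cd79a of B cells and Adgre1, Csf1r and Itgax of myeloid cells had none in either. Several of the 6 genes are also used outside T cells, Thy1 in neurons and stroma, Cd5 and Cd2 in B cells, Cd27 in NK and B cells and Spn in myeloid cells. The part of such cells in the sites above was not tested.

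**Figure D5:**
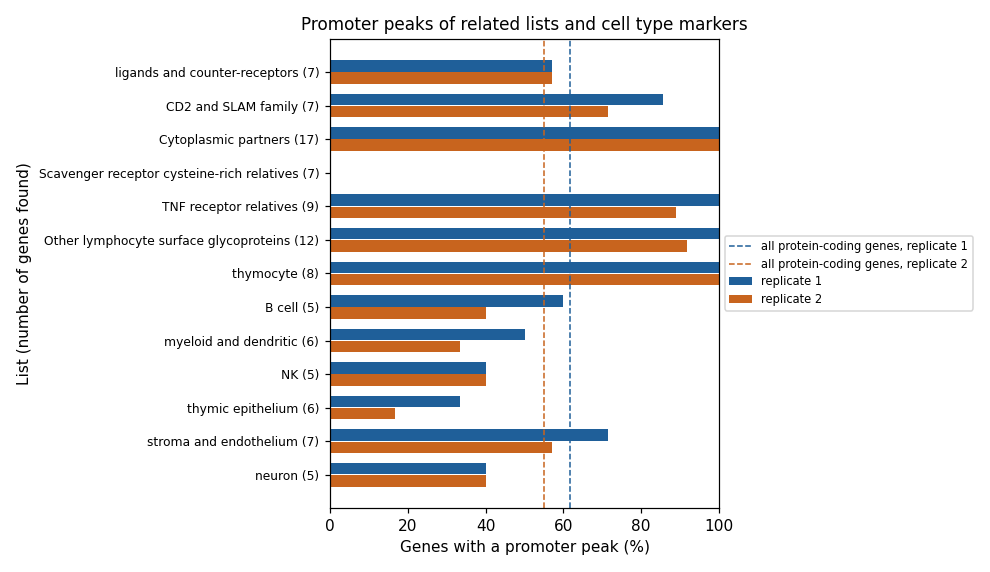
Percent of the genes of each list that had a peak within 1 kb of the start (horizontal) for 6 lists of related genes and 7 lists of cell type markers (vertical, number of genes found in brackets), with dashed lines at 61.7% and 55.1%, the shares over all protein-coding genes in replicates 1 and 2. Cytoplasmic partners and thymocyte markers reach 100% in both libraries, and the scavenger receptor relatives are at 0 in both.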

How the data were processed

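Peak, footprint and cut-rate files of 2 thymus DNase-seq libraries were analysed, each made from its own alignment on mm10 per the deposited notes, with nothing pooled. The aligner and callers were not given in the sources used here. The peak signal is a density deposited by the authors with unstated scaling, and it was used only as a rank within a list. The deposited q-value file lists a false discovery rate per run of bases, all below 0.05. The deposited footprints carry the same p-value threshold, 0.01, throughout, and their positions alone were read. Reads of the F1 hybrid were placed on mm10, and allele differences were not examined.

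The longer of the 2 deposited peak lists per library was used. Gene models were GENCODE release M21, and sequences came from GRCm38, the same build. Overlap needed at least 1 bp. A gene's place is the percent of protein-coding genes with fewer peaks per 10 kb in the same span. By rule the text names, besides each promoter, the 3 other shared sites of a span with the highest mean percentile and its densest site found in 1 library alone. At Cd2 and Spn that last site, not described above, lay 6.83 and 7.90 kb from the start. It was at the 66.5 and 71.5 percentiles of replicate 1. All other sites in the text were picked after values were seen. Lists name genes that differ from most of their list, up to 4, and other examples from them were picked after values were seen. The B cell list held 1 further marker, which is not reported here, and its counts cover the other 5. Members and lists were chosen with earlier results of these data known. No test was run, since there is 1 group of 2 animals. Counts and overlaps were tested on simulated data. Analyses used Python 3.11.15, numpy 2.4.6, pandas 2.3.3, scipy 1.17.1, pysam 0.24.0 and matplotlib 3.10.9.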

Additional observations from a re-analysis of the deposited data

How the results depend on the processing

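The 6 promoters were called open in both libraries with a window of 500 bp, with any annotated transcript start and with the shorter deposited peak lists. The mean number of peaks per library in the 5 spans, 132, became 100 with the shorter lists, 95.5 with 10 kb flanks and 56.0 without flanks, where the stretch across Cd5, Cd6 and the DNA between them counted as 1 body. Both take in less DNA. It was 100 with the replicate 1 list reduced to the length of the replicate 2 list. Leaving out either library gave 84 to 179 peaks, 277 to 547 footprints and 28357 to 73351 bases below 0.05. The mean share of shared peaks, 70.2%, was 70.2% when 50% of the shorter peak had to overlap and 71.2% with the shorter lists. The median difference in percentile of the shared sites, 5.45 points, turned to -10.8 with lists of equal length, since the shorter list drops weak peaks. The mean place of Cd5 among genes, 86.0, was 78.7 with the shorter lists. The CTCF share was 2.5% with no mismatch and 10% with up to 1, against 4.87% and 15.0% of all shared pairs. No paired analysis was possible because there is 1 group. Unknown read depth and 1 library per animal limit every comparison between the libraries.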

Other observations

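Most peaks called in replicate 1 alone held no listed base in replicate 2. Of the 98 replicate 1 peaks in the spans of Cd5, Cd6, Cd2, Thy1, Cd27 and Spn without a replicate 2 partner, 2 held any base with a false discovery rate below 0.05 in replicate 2. None held a base at or below 0.001. Of the 4 replicate 2 peaks without a partner, 2 held a base below 0.05 in replicate 1. The same counts were not made over the whole lists, so they are not read as particular to these spans. Peaks and listed bases both come from the cuts of a library, so they are not independent. The replicate 1 peaks without a partner had a median density percentile of 42.2 and those with one 80.5.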
